A study of Mus musculus with 3 samples.

Results

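Cdkn1a, Mdm2, Ccng1, Trp53inp1, Bax, Zmat3, Phlda3, Gadd45a and Btg2 are widely used target genes of the transcription factor p53. They were followed by gene symbol, 9 of the 32285 genes counted, through 3 libraries of single-cell RNA-seq from mouse islets of the pancreas. The UMIs (unique molecular identifiers, 1 per captured transcript) of each gene were summed over the cells of each class in each library. p53 is held low in unstressed cells because Mdm2 marks it for degradation. DNA damage and other stresses stabilise it, and it then activates genes that halt the cell cycle, repair DNA, feed back on p53 itself or trigger apoptosis. In islets, p21, the product of Cdkn1a, is a brake on beta cell replication, and several genes of the list also have inputs other than p53: Btg2 is an immediate early gene, and Cdkn1a, Trp53inp1 and Gadd45a can respond to metabolic and endoplasmic reticulum stress.

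The 3 libraries are labelled ASF-KO (ASF is an older name of the splicing factor SRSF1), SC35-KO (SC35 is an older name of SRSF2) and WT, with 1 library each, and the labels give 9 months for every library. Which exons were deleted, what drove the deletion, in which cells it took place and how many animals were pooled are not given in the sources used here. Islets were hand-picked after collagenase digestion, dissociated with trypsin and sequenced with the Chromium Single Cell 3' v3 chemistry. The targeted genes were not lower in the libraries named for them. Srsf1 stood at 47.1 CPM (counts-per-million units, taken over UMIs) in ASF-KO, 52.8 CPM in SC35-KO and 42.8 CPM in WT cells, and Srsf2 at 62.5 CPM in ASF-KO, 35.7 CPM in SC35-KO and 33.6 CPM in WT cells. A 3' count need not see a deletion upstream of it, so the genotypes below rest on the labels alone.

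After filtering and doublet removal 7123 ASF-KO, 10783 SC35-KO and 8959 WT cells remained, from libraries of 148320213 to 154099078 UMIs. The libraries were unlike in what the filter removed, 5095 of 12496 barcodes in ASF-KO, 2234 of 13919 in SC35-KO and 978 of 10266 in WT. The part of this in the differences between libraries was not tested. Cells were assigned to classes by gates on hormone and marker UMIs. The beta-like class held 3937 ASF-KO, 5082 SC35-KO and 4759 WT cells, and the alpha-like class 1419 ASF-KO, 2605 SC35-KO and 1303 WT cells. The delta-like class held 593 ASF-KO, 1365 SC35-KO and 676 WT cells, and the endothelial-like class 416 ASF-KO, 377 SC35-KO and 645 WT cells. Defining markers were highest in their own class in all 3 libraries for 9 of 9 alpha, 9 of 12 beta, 4 of 6 delta and 10 of 10 endothelial genes. The gates themselves used all 10 endothelial markers and the insulin, glucagon and somatostatin genes. For these genes the count is therefore not a check of the classes. The libraries stood apart within the beta-like class: one cluster held 2620 ASF-KO, 239 SC35-KO and 195 WT cells of beta type, another 118 ASF-KO, 4126 SC35-KO and 238 WT, and another 60 ASF-KO, 447 SC35-KO and 3348 WT. In the alpha-like class SC35-KO stood apart, with a cluster of 76 ASF-KO, 2740 SC35-KO and 190 WT cells beside one of 1426 ASF-KO, 125 SC35-KO and 1235 WT cells. Delta-like cells of the 3 libraries shared a cluster of 632 ASF-KO, 1492 SC35-KO and 698 WT cells. Genotype, library preparation and animal therefore cannot be told apart. With 1 library per genotype no difference between genotypes could be tested. The 95% intervals are exact and cover the counting error of UMIs or cells only. The libraries shared 11 to 28 cell barcodes in pairs.

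All 9 are protein-coding genes, placed here on GRCm38 with the GENCODE M21 annotation. Cdkn1a (chr17:29090976-29100727, plus strand) encodes p21, an inhibitor of cyclin-dependent kinases. Ccng1 (chr11:40748552-40755311, minus strand) encodes cyclin G1, which recruits a phosphatase to Mdm2. Btg2 (chr1:134075170-134079120, minus strand) encodes an antiproliferative protein that binds the mRNA deadenylase complex, and Gadd45a (chr6:67035096-67037457, minus strand) a growth-arrest protein with roles in repair and stress kinase signalling. Mdm2 (chr10:117688875-117710758, minus strand) encodes the ubiquitin ligase that degrades p53. Trp53inp1 (chr4:11156431-11174379, plus strand) encodes a p53-inducible nuclear protein that promotes cell death and autophagy. Bax (chr7:45461697-45466898, minus strand) encodes the pore-forming effector of mitochondrial apoptosis. Phlda3 (chr1:135766119-135769136, plus strand) encodes a pleckstrin-homology protein that restrains Akt and has been described as a suppressor of islet tumours. Zmat3 (chr3:32334792-32366014, minus strand) encodes a zinc-finger RNA-binding protein that acts in splicing. Gadd45a overlaps E230016M11Rik on the opposite strand, so its low counts could include reads of that gene if strand was not used in counting.

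Promoters bear on this set because p53 binds a response element made of a pair of like half-sites. RefSeq promoters (GRCm38.p6, 250 bases before to 50 after the start) were matched by symbol for 7 of the 9 genes, with Cdkn1a entered at 2 starts. The p53 consensus half-site, whose pattern is its own reverse complement and so covers both strands, was searched without mismatches. It was found in 5 of the 7 genes, at 2 places before 1 of the Cdkn1a starts and at 1 place each in Mdm2, Ccng1, Bax and Gadd45a. None was found in Phlda3 or Btg2. Of all 32851 RefSeq promoters of that length, 2745 (8.36%) held one. A pair of adjacent half-sites with at most 1 mismatch was present in 29 of all promoters (0.0883%), Cdkn1a and Ccng1 among them. The 4 sequences shown are those of Cdkn1a and of the genes whose UMIs went with it in alpha-like cells, described further on. Each runs 5′ to 3′ on the gene's strand from base -250 to base -31 before the start, and capitals mark exact half-sites. Cdkn1a is chr17:29090729-29090948 (plus), Ccng1 chr11:40755317-40755536 (minus), Bax chr7:45466929-45467148 (minus) and Phlda3 chr1:135765835-135766054 (plus).
Cdkn1a: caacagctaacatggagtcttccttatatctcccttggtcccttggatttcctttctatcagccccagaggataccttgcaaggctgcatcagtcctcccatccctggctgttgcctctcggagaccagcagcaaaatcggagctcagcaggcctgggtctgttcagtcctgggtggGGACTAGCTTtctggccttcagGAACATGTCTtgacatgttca
Ccng1: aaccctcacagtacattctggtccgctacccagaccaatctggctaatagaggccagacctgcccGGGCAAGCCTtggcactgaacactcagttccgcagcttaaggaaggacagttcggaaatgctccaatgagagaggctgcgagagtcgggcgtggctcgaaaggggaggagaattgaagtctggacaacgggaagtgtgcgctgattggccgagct
Bax: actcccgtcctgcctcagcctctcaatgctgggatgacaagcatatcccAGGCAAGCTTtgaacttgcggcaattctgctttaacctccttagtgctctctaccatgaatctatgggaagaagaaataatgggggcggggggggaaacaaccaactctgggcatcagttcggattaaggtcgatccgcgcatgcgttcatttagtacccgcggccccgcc
Phlda3: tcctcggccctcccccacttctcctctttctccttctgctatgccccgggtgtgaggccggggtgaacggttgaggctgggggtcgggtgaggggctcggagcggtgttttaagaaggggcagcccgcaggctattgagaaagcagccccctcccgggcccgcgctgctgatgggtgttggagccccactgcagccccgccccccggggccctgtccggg
The half-sites began at bases -73 and -51 in Cdkn1a, at -185 in Ccng1 and at -201 in Bax. The Cdkn1a half-site at -51 opened the pair with 1 mismatch, and in Ccng1 the pair began at -195, with the exact half-site as its downstream member. The best pair in the Bax window had 3 mismatches, a quality that 6.29% of all promoters reach. A match describes letters in a window and is not a measured binding site, and a gene without one may have it elsewhere.

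The islet classes differed in which of these genes they carried. To compare classes, levels were scaled to the UMIs outside hormone and mitochondrially encoded genes, since insulin alone took 63.7% of the beta-like UMIs in ASF-KO, 63.2% in SC35-KO and 53.5% in WT. Beta-, alpha-, delta- and endothelial-like cells were compared, and gamma-like cells were left out because ASF-KO held only 95 of them. On this scale Cdkn1a, the cell-cycle inhibitor, was highest in endothelial-like cells of each library, at 83.2 CPM in ASF-KO, 264.8 CPM in SC35-KO and 512 CPM in WT. Of the 4 classes it was lowest in delta-like cells of each library, at 25.3, 27.3 and 43.3 CPM for ASF-KO, SC35-KO and WT. Endothelial-like cells thus exceeded delta-like cells by 3.29-fold in ASF-KO, 9.72-fold in SC35-KO and 11.8-fold in WT. Beta-like cells stood above alpha-like cells in SC35-KO and WT but below them in ASF-KO, where Cdkn1a was at 47.6 CPM in beta-like and 61.0 CPM in alpha-like cells.

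Phlda3, the Akt inhibitor, had the widest spread over classes of the 9 genes in each library. Endothelial-like cells held 39.7 CPM in ASF-KO, 43.5 CPM in SC35-KO and 41.1 CPM in WT. Alpha-like cells held 12.99, 12.1 and 11.97 CPM for ASF-KO, SC35-KO and WT, and beta-like cells 2.67, 4.299 and 4.55 CPM in that order of libraries. The order endothelial, alpha, beta held in all 3 libraries without overlap of the intervals, and beta-like and delta-like cells overlapped. Among the 4 classes, Btg2 was likewise highest in endothelial-like and next in alpha-like cells of every library, at 839, 702 and 500.4 CPM in endothelial-like and 647, 318 and 389 CPM in alpha-like cells of ASF-KO, SC35-KO and WT.

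Trp53inp1, Zmat3 and Ccng1 ran the other way and were lowest of the 4 classes in endothelial-like cells of all 3 libraries. Trp53inp1 stood at 19.5 CPM in ASF-KO, 25.3 CPM in SC35-KO and 19.1 CPM in WT endothelial-like cells, and at 57.3, 113 and 116 CPM in beta-like cells of the same libraries. Mdm2, the p53 ubiquitin ligase, followed the order beta, delta, alpha, endothelial in the 3 libraries, but at least 1 pair of neighbouring classes overlapped in each. Outside hormone and mitochondrial genes Bax was close to even across the 4 classes. Its highest class stood 1.47-fold above its lowest in ASF-KO, 1.37-fold in SC35-KO and 1.44-fold in WT. On CPM over all UMIs it was not even. Endothelial-like cells, the highest, stood above beta-like cells, the lowest, by 3.44-fold in ASF-KO, 3.45-fold in SC35-KO and 3.37-fold in WT. Gadd45a, the growth-arrest gene, was highest of the 4 classes in beta-like cells of each library, at 19.98 CPM in ASF-KO, 14.9 CPM in SC35-KO and 10.01 CPM in WT, and overlapped the next class in SC35-KO and WT. The order of classes depends on the scaling. On CPM over all UMIs, beta-like cells were lowest for Mdm2, Bax and Btg2 in all 3 libraries. They were lowest but overlapped endothelial-like cells for Ccng1 in both knockout libraries and for Trp53inp1 in ASF-KO. For Cdkn1a in ASF-KO they were lowest but overlapped delta-like cells. Beta-like cells were also lowest for Phlda3 and Gadd45a in SC35-KO and WT, where they again overlapped delta-like cells. Gadd45a in beta-like cells of those libraries thus went from highest to lowest with the scaling.

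**Figure D1:**
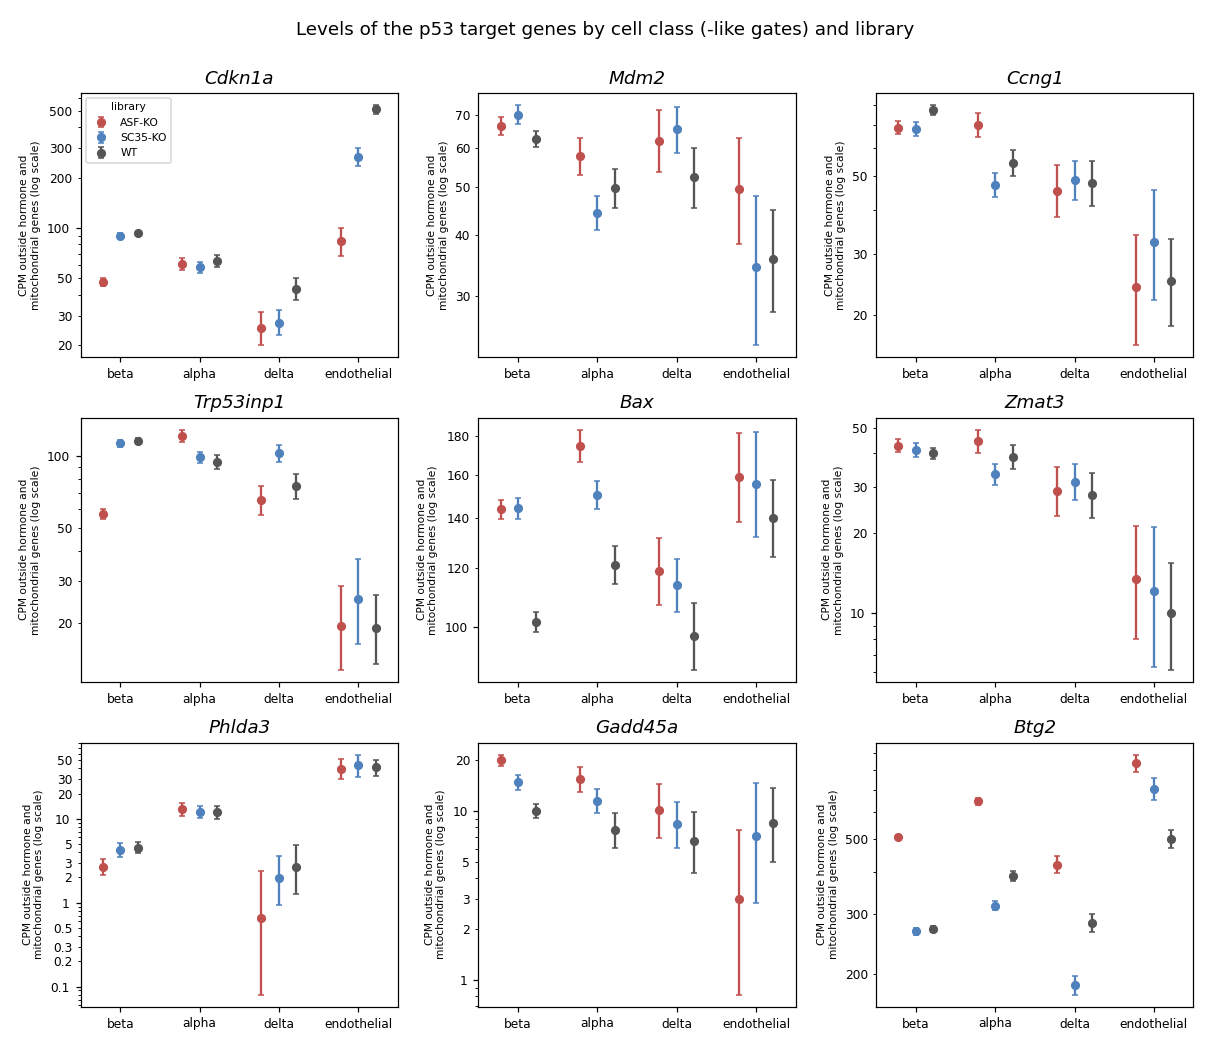
Level of each gene (log axis, CPM outside hormone and mitochondrial genes) in beta-, alpha-, delta- and endothelial-like cells of the ASF-KO (red), SC35-KO (blue) and WT (grey) libraries; points are 1 summed library and bars exact 95% counting intervals. Cdkn1a in endothelial-like cells runs 83.2, 264.8 and 512 CPM for ASF-KO, SC35-KO and WT, and Trp53inp1 in beta-like cells is at 57.3 CPM in ASF-KO against 116 CPM in WT.

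Genotypes were compared within a class on CPM over all UMIs, each ratio divided by that of the median gene. In beta-like cells the median gene was lower by 0.44 in ASF-KO and 0.43 in SC35-KO on the log2 scale than in WT, beside the larger insulin share. A gene was called higher or lower at 1.5-fold relative to the median gene, where either library had 10 CPM or more of it. These calls are a size rule and carry no test.

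In beta-like cells of the ASF-KO library, Cdkn1a and Trp53inp1 were lower than in WT and Btg2 was higher. Cdkn1a stood at 13.8 CPM in ASF-KO, 25.7 CPM in SC35-KO and 35.9 CPM in WT. ASF-KO was the lowest of the libraries, with a ratio to WT relative to the median gene of 0.518 (95% interval 0.488 to 0.550). Trp53inp1, the cell death and autophagy gene, stood at 16.6 CPM in ASF-KO, 32.3 CPM in SC35-KO and 44.5 CPM in WT, a relative ratio in ASF-KO of 0.504 (0.477 to 0.532). Btg2 stood at 147.0 CPM in ASF-KO, 76.1 CPM in SC35-KO and 104.5 CPM in WT, a relative ratio in ASF-KO of 1.90 (1.86 to 1.95). The other measured members were Bax at 1.44, Zmat3 at 1.09, Mdm2 at 1.08 and Ccng1 at 0.904, all short of the fold. So 1 of 7 measured members was higher and 2 of 7 lower, where 9.16% of 6585 genes were higher and 8.12% lower. Gadd45a and Phlda3 were under 10 CPM and were not compared. Under median-of-ratios scaling Bax passed the fold as well, at 1.51.

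In beta-like cells of the SC35-KO library none of the 7 measured members reached the fold in either direction, against 3.6% of 6551 genes higher and 2.55% lower. Their relative ratios ran between 0.882 for Ccng1 and 1.42 for Bax. Cdkn1a was at 0.967 (0.918 to 1.02), Trp53inp1 at 0.979 (0.935 to 1.03) and Btg2 at 0.985 (0.956 to 1.01). Set directly against ASF-KO, SC35-KO beta-like cells had 1.88-fold more Cdkn1a (1.76 to 2.01) and 1.96-fold more Trp53inp1 (1.85 to 2.08) relative to the median gene, and less Btg2, at 0.522 (0.507 to 0.537). That is 2 of 7 higher and 1 of 7 lower, where 7.16% of 5780 genes were higher and 7.56% lower. Bax, the apoptosis effector, was at 0.996 (0.954 to 1.04) between these libraries, and stood 1.44-fold above WT in ASF-KO and 1.42-fold in SC35-KO. The contrasts against WT share the WT library.

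In alpha-like cells neither Cdkn1a nor Trp53inp1 reached the fold. Cdkn1a stood at 41.2 CPM in ASF-KO, 37.4 CPM in SC35-KO and 45.8 CPM in WT, relative ratios to WT of 0.874 (0.777 to 0.984) in ASF-KO and 0.940 (0.843 to 1.05) in SC35-KO. Trp53inp1 was at 1.17 in ASF-KO and 1.07 in SC35-KO. Btg2 stood at 437 CPM in ASF-KO, 204 CPM in SC35-KO and 281 CPM in WT, and its relative ratio of 1.51 (1.45 to 1.58) in ASF-KO just reached the fold. With Leiden clusters in place of gates it was 1.44 and did not. Gadd45a, at 10.4 CPM in ASF-KO, 7.39 CPM in SC35-KO and 5.61 CPM in WT, had a relative ratio of 1.81 (1.35 to 2.44) in ASF-KO. Thus 2 of 8 measured members were higher and 0 lower in ASF-KO alpha-like cells, where 4.3% of 8143 genes were higher and 6.79% lower. In SC35-KO alpha-like cells 0 of 7 were higher and 0 lower, where 2.61% of 7904 genes were higher and 2.67% lower. Bax was at 1.31 in ASF-KO and 1.27 in SC35-KO, short of the fold. Against ASF-KO, SC35-KO alpha-like cells had less Btg2, at 0.549 (0.528 to 0.571), so that 0 of 8 members were higher and 1 lower, where 6.92% of 7945 genes were higher and 5.8% lower.

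Delta-like cells held less Cdkn1a in both knockout libraries than in WT. It stood at 16.8 CPM in ASF-KO, 18.6 CPM in SC35-KO and 31.3 CPM in WT, from 77, 140 and 163 UMIs. The relative ratios were 0.534 (0.402 to 0.704) in ASF-KO and 0.586 (0.464 to 0.739) in SC35-KO. Btg2 stood at 279 CPM in ASF-KO, 126 CPM in SC35-KO and 205 CPM in WT, relative ratios of 1.36 (1.25 to 1.47) in ASF-KO and 0.608 (0.557 to 0.664) in SC35-KO. Trp53inp1 was at 0.797 in ASF-KO and 1.28 in SC35-KO. In ASF-KO 0 of 7 measured members were higher and 1 lower, where 5.69% of 8745 genes were higher and 7.75% lower. In SC35-KO 0 of 7 were higher and 2 lower, where 3.45% of 8731 genes were higher and 4.02% lower. Against ASF-KO, SC35-KO delta-like cells had more Trp53inp1, at 1.59 (1.35 to 1.88), and less Btg2, at 0.444 (0.408 to 0.484). That is 1 of 7 higher and 1 lower, where 6.7% of 8749 genes were higher and 5.43% lower.

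The largest difference of the set was Cdkn1a in endothelial-like cells. It stood at 75.0 CPM in ASF-KO, 242 CPM in SC35-KO and 482 CPM in WT, from 111, 262 and 1022 UMIs. The intervals of the 3 libraries did not overlap. The relative ratio to WT was 0.150 (0.122 to 0.182) in ASF-KO and 0.476 (0.414 to 0.546) in SC35-KO, and SC35-KO exceeded ASF-KO by 3.16-fold (2.52 to 3.98), the 1 of 8 members higher in that comparison, with 0 lower, where 12.1% of 8784 genes were higher and 10.9% lower. Thinned to 1000 UMIs per cell, 6.63% of ASF-KO, 15.3% of SC35-KO and 38.1% of WT endothelial-like cells held a Cdkn1a UMI, and unthinned 15.9%, 32.9% and 61.9% did. The thinning left out 9 ASF-KO, 11 SC35-KO and 5 WT cells, and the median depth was 3396 UMIs in ASF-KO, 2487 UMIs in SC35-KO and 2970 UMIs in WT. No class known to lack Cdkn1a was at hand to measure its background from free RNA. The share in delta-like cells, the lowest of the 4 classes compared, was 2.37% in ASF-KO, 2.75% in SC35-KO and 5.27% in WT after the same thinning, from cells of 7747, 5411 and 7660 median UMIs in that order. Insulin, a measure of free RNA here, took 5.56% of endothelial-like UMIs in ASF-KO, 4.805% in SC35-KO and 2.43% in WT. The part of free RNA in the difference was not tested.

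No other measured member was called lower in these cells, but thinned to 2000 UMIs per cell 3 members were lower in ASF-KO (Cdkn1a, Ccng1 and Phlda3) and 2 in SC35-KO (Cdkn1a and Mdm2). Phlda3 stood at 35.8 CPM in ASF-KO, 39.7 CPM in SC35-KO and 38.7 CPM in WT, and Bax at 143, 142 and 132 CPM for ASF-KO, SC35-KO and WT. The intervals of both genes overlapped across the libraries. Btg2 stood at 756 CPM in ASF-KO and 641 CPM in SC35-KO against 471 CPM in WT, with relative ratios of 1.55 (1.42 to 1.69) in ASF-KO and 1.29 (1.17 to 1.43) in SC35-KO. After the same thinning the ASF-KO ratio of Btg2 was 1.49 and missed the fold. In ASF-KO 1 of 8 measured members was higher and 1 lower, where 9.62% of 8659 genes were higher and 12.9% lower. In SC35-KO 0 of 8 were higher and 1 lower, where 9.05% of 8730 genes were higher and 11.4% lower. Mdm2, Ccng1, Trp53inp1 and Zmat3 had 12 to 71 UMIs per library here, and their intervals spanned 1 in every comparison with WT. Endothelial Trp53 itself was higher in both knockout libraries, at 72.3 CPM in ASF-KO and 83.0 CPM in SC35-KO against 42.9 CPM in WT. Trp53 was also called higher in ASF-KO delta-like cells. There 2 of 10 measured genes of p53 and its regulators (Trp53 and Atr) and 5.69% of all genes were higher. In SC35-KO delta-like cells 0 of 10 were, against 3.45% of all genes.

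**Figure D2:**
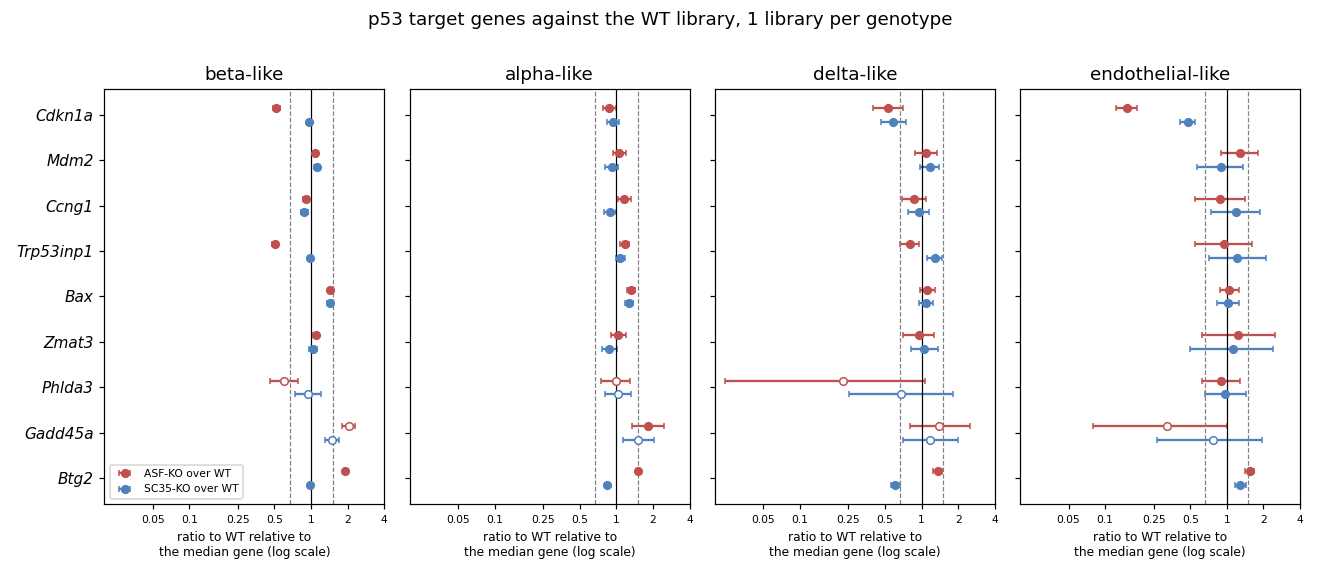
Ratio to WT relative to the median gene (log axis) for each gene in the 4 classes, ASF-KO over WT (red) and SC35-KO over WT (blue), with exact 95% counting intervals; dashed lines mark 1.5-fold and open symbols genes under 10 CPM in both sums. Cdkn1a lies left of the line in ASF-KO beta-, delta- and endothelial-like cells, at 0.518, 0.534 and 0.150, and near 1 in alpha-like cells.

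Whether these genes occur together in single cells is a measure that does not rest on a comparison of libraries, and it can be read 3 times. Cells were thinned to 2000 UMIs and divided by whether they held a Cdkn1a UMI. In alpha-like cells, 123 of 1390 ASF-KO, 204 of 2463 SC35-KO and 119 of 1270 WT cells did. Ccng1, the cyclin that feeds back on Mdm2, counted 341 UMIs per 1000 cells with Cdkn1a and 104 per 1000 cells without it in ASF-KO. In SC35-KO it counted 235.3 with and 75.3 without, and in WT 244 with and 93.8 without. The ratios were 3.28 (2.26 to 4.67) in ASF-KO, 3.13 (2.22 to 4.33) in SC35-KO and 2.60 (1.66 to 3.95) in WT.

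Bax and Phlda3 went with Cdkn1a in alpha-like cells as well. Bax, the apoptosis effector, had ratios of 2.24 (1.76 to 2.82) in ASF-KO, 1.74 (1.40 to 2.15) in SC35-KO and 2.07 (1.52 to 2.76) in WT. Phlda3, the Akt inhibitor, had the largest ratios, 7.73 (3.68 to 15.9) in ASF-KO, 5.37 (2.76 to 10.0) in SC35-KO and 6.11 (2.71 to 13.3) in WT, from only 15, 16 and 12 UMIs in the cells with Cdkn1a. The other members did not reach 1.5-fold in all 3 libraries. Trp53inp1 was at 1.24 in ASF-KO, 1.78 in SC35-KO and 1.09 in WT, and Zmat3 at 1.81 in ASF-KO, 1.63 in SC35-KO and 1.16 in WT. Mdm2 was at 1.82 in ASF-KO, 1.18 in SC35-KO and 1.03 in WT, and Btg2 at 0.99, 1.21 and 1.04 for the same libraries. So 3 of 8 members with enough UMIs were at 1.5-fold or more in all 3 libraries, where 0.284% of 9150 genes (26 genes) were. None was at 1.5-fold lower in all 3, where 1.14% of genes were.

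When the 6851 genes at 10 CPM or more in alpha-like cells of every library were ranked by the lowest of their 3 ratios, Ccng1 was 1st and Bax 2nd. F8a, Ogdhl and Polk followed, and Polk encodes a translesion DNA polymerase that is itself a reported p53 target. Zmat3 ranked 158th, Trp53inp1 316th, Mdm2 584th and Btg2 877th. Among 30 other reported p53 target genes, 14 had enough UMIs and 2 reached 1.5-fold in all 3 libraries. They were Aen, an apoptosis-enhancing nuclease, at 2.23 in ASF-KO, 3.39 in SC35-KO and 1.86 in WT, and Polk, at 2.10 in ASF-KO, 1.71 in SC35-KO and 1.61 in WT. In WT they rest on 5 and 7 UMIs in cells with Cdkn1a, and their intervals there included 1. No member of the p53 regulators, the BCL2 family, the cyclins and Cdks, or the immediate early genes did so. The ranking in alpha-like cells was added after the beta-like one had been seen.

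The cells compared had like depth. The median alpha-like cell had 9565 UMIs with Cdkn1a and 9106 without in ASF-KO, 7939.5 with and 7998 without in SC35-KO, and 9446 with and 9999 without in WT. Summed over 10 endothelial markers, cells with Cdkn1a stood at 16.3 CPM against 17.8 CPM without in ASF-KO and 14.7 against 44.0 CPM in SC35-KO, but at 122 against 31.7 CPM in WT. With every cell that held an endothelial marker UMI left out, the WT ratios were 2.60 for Ccng1, 2.19 for Bax and 6.68 for Phlda3. With cells thinned to 1000 UMIs, the WT ratios were 1.30 for Ccng1, 1.42 for Bax and 2.53 for Phlda3, so that Ccng1 and Bax no longer reached 1.5-fold in WT. Summed proliferation genes were at 3.51 (1.98 to 5.96) in the SC35-KO cells with Cdkn1a, 1.47 (0.450 to 3.77) in ASF-KO and 0.854 (0.303 to 1.96) in WT. Their part in the ratios was not tested.

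**Figure D3:**
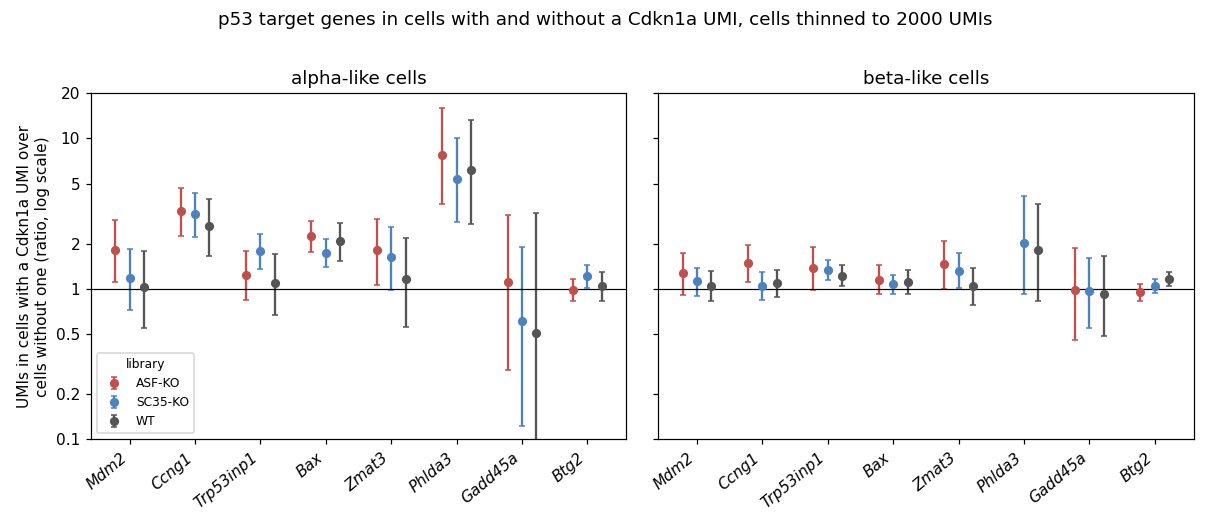
UMIs of each gene per cell in cells with over cells without a Cdkn1a UMI (ratio, log axis), in alpha-like (left) and beta-like cells (right) of the 3 libraries, with exact 95% counting intervals. Ccng1, Bax and Phlda3 lie above 1 in all 3 libraries in alpha-like cells, Ccng1 at 3.28, 3.13 and 2.60; an interval that leaves the axis is cut at its edge.

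The cells were also divided by each of the other members. A pair read in reverse rests on the same overlap in the same cells, so it is not a further result. Alpha-like cells with a Ccng1 UMI held a Cdkn1a UMI in 22.2% of ASF-KO, 20.5% of SC35-KO and 18.4% of WT cells, against 7.08%, 7.20% and 8.38% of those without. Of the 33 ASF-KO, 48 SC35-KO and 30 WT alpha-like cells with a Phlda3 UMI, 13, 15 and 11 also held Cdkn1a. Cells divided by Phlda3 had Ccng1 ratios between 1.92 and 2.51 and Bax ratios between 1.87 and 2.73 over the 3 libraries. The lowest interval bound was 0.817 for Ccng1 and 1.01 for Bax. Ccng1 and Bax did not reach the fold with each other in all 3 libraries. Ccng1 ran from 1.12 to 1.67 in cells divided by Bax, and Bax from 1.18 to 1.69 in cells divided by Ccng1. Of 62 ordered pairs of members that could be computed in alpha-like cells, 10 were at 1.5-fold or more in all 3 libraries, and 7 had an interval above 1 in all 3. Each pair enters in both directions and the pairs share cells, so they are not independent. None of 56 pairs in beta-like, 42 in delta-like or 6 in endothelial-like cells reached 1.5-fold in all 3 libraries. The difference between classes was not tested, and most endothelial-like pairs had too few UMIs to be computed.

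**Figure D4:**
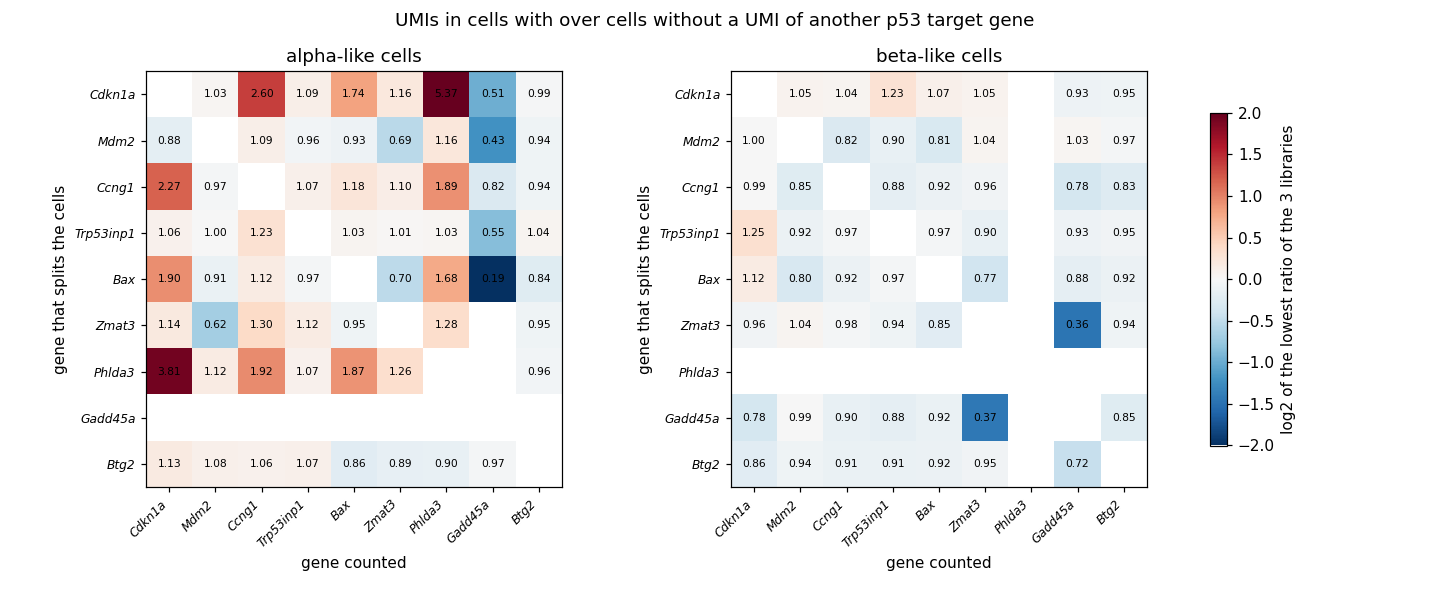
Lowest of the 3 libraries' ratios of UMIs of the gene in the column, in cells with over cells without a UMI of the gene in the row, for alpha-like (left) and beta-like cells (right); the colour is the log2 of the printed ratio and blank squares have too few UMIs. In alpha-like cells the pairs among Cdkn1a, Ccng1, Bax and Phlda3 stand out, except Ccng1 with Bax. Ccng1 is at 2.60 in cells divided by Cdkn1a and at 1.12 in cells divided by Bax, and the highest beta-like value is 1.25.

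Beta-like cells with a Cdkn1a UMI numbered 267 in ASF-KO, 714 in SC35-KO and 680 in WT. They were set against the rest in the same way. None of 7 members reached 1.5-fold in all 3 libraries, where 0.097% of 11336 genes (11 genes) did, and none was at 1.5-fold lower, where 0.247% did so. Phlda3 was not among the 7, with too few UMIs in ASF-KO, 2 in cells with Cdkn1a and 13 in cells without. Its ratios were 2.03 (0.921 to 4.15) in SC35-KO and 1.82 (0.834 to 3.69) in WT, and both intervals included 1. Of the 7, Trp53inp1 was the nearest to the fold. It counted 157 UMIs per 1000 cells with Cdkn1a and 114 without in ASF-KO, 283 and 211 in SC35-KO, and 266 and 217 in WT. Its ratios were 1.38 (0.981 to 1.90) in ASF-KO, 1.34 (1.15 to 1.57) in SC35-KO and 1.23 (1.04 to 1.44) in WT. In cells thinned to 1000 UMIs the ratio was 1.11 in SC35-KO and 0.955 in WT, so its direction in WT depends on depth. The genes ranked highest by the lowest of the 3 ratios were Nupr1, Eif4ebp1, Cox6a2, Aldh1l2, Atf5, Phgdh, Trp53inp1, Chac1, Xpot and Cebpb. Of these, Nupr1, Eif4ebp1, Aldh1l2, Atf5, Phgdh, Chac1 and Xpot are known targets of Atf4, the factor of the integrated stress response, which adapts amino acid supply and translation. Nupr1, a stress-induced chromatin protein, was at 1.84 in ASF-KO, 1.45 in SC35-KO and 1.54 in WT. Summed over 12 Atf4 and CHOP targets, the ratio was 1.42 (1.34 to 1.51) in ASF-KO, 1.34 (1.31 to 1.38) in SC35-KO and 1.31 (1.27 to 1.36) in WT, and in alpha-like cells 1.02, 0.990 and 1.12 for the same libraries. Of these targets 11 had enough UMIs in beta-like cells, and 0 reached 1.5-fold in all 3 libraries. Summed over the members other than Cdkn1a, the beta-like ratio was 1.10 (1.004 to 1.20) in ASF-KO, 1.12 (1.05 to 1.20) in SC35-KO and 1.14 (1.07 to 1.22) in WT. Summed over proliferation genes it differed by library, at 0.529 (0.225 to 1.06) in ASF-KO, 2.10 (1.70 to 2.57) in SC35-KO and 1.36 (1.03 to 1.79) in WT.

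Beta-like cells, thinned to 2000 UMIs, were then divided by their summed Atf4 and CHOP target UMIs at the tertiles of all 3 libraries together. Cdkn1a was higher with each step in every library, which is the association above read in the other direction and not a further result. In low, middle and high cells it stood at 27.3, 60.4 and 79.7 CPM in ASF-KO, at 50.1, 82.1 and 125 CPM in SC35-KO, and at 67.3, 80.6 and 136 CPM in WT, outside hormone and mitochondrial genes. High cells exceeded low cells by 2.92-fold (2.14 to 3.96) in ASF-KO, 2.50-fold (2.08 to 3.02) in SC35-KO and 2.02-fold (1.71 to 2.40) in WT. For Trp53inp1 the ratio of high to low cells was 1.23 (0.906 to 1.65) in ASF-KO, an interval that includes 1, 1.25 (1.08 to 1.45) in SC35-KO and 1.40 (1.20 to 1.63) in WT. High cells made up 10.7% of ASF-KO, 44.7% of SC35-KO and 31.3% of WT beta-like cells, and 7 of 9 measured Atf4 and CHOP targets were lower in ASF-KO than in WT, where 8.12% of all genes were.

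Within each of these groups of cells Cdkn1a and Trp53inp1 were lower in ASF-KO than in WT. The ratio of ASF-KO to WT for Cdkn1a was 0.405 (0.324 to 0.506) in low, 0.750 (0.596 to 0.939) in middle and 0.585 (0.443 to 0.763) in high cells. For Trp53inp1 it was 0.584 (0.494 to 0.690), 0.552 (0.443 to 0.683) and 0.514 (0.381 to 0.682). In cells divided by endoplasmic reticulum chaperones, of which 11 of 12 were higher in ASF-KO beta-like cells where 9.16% of all genes were, high cells made up 90.9% of ASF-KO, 10.0% of SC35-KO and 7.1% of WT. There the ratio of ASF-KO to WT for Cdkn1a was 0.391 (0.299 to 0.519) in high cells and 0.464 (0.304 to 0.682) in middle cells, and low cells, with only 5 Cdkn1a UMIs in ASF-KO, were at 0.958 (0.310 to 2.26).

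Btg2 followed the immediate early genes, a set of quickly induced genes such as Fos and Jun that tissue dissociation also raises. In beta-like cells divided by 13 of them, Btg2 stood at 269, 421 and 631 CPM in low, middle and high cells of ASF-KO, at 179, 293 and 406 CPM in SC35-KO, and at 168, 237 and 464 CPM in WT. High over low cells gave 2.34 (2.09 to 2.63) in ASF-KO, 2.26 (2.04 to 2.51) in SC35-KO and 2.76 (2.50 to 3.04) in WT. The same ratio was 3.03, 2.31 and 2.27 in alpha-like, 3.54, 3.26 and 2.47 in delta-like, and 4.02, 8.76 and 2.42 in endothelial-like cells of ASF-KO, SC35-KO and WT. For Cdkn1a the ratio of high to low beta-like cells was 1.01 in ASF-KO, 0.975 in SC35-KO and 1.22 in WT, and of alpha-like cells 0.873, 1.60 and 1.97. Summed over the 13 genes, beta-like cells held 1133 CPM in ASF-KO, 519 CPM in SC35-KO and 877 CPM in WT, and delta-like cells 3062, 1036 and 2141 CPM. These sums order the libraries as Btg2 does, and their part in its differences was not tested across libraries. Within low, middle and high beta-like cells the ASF-KO to WT ratio of Btg2 was 1.60 (1.40 to 1.82), 1.78 (1.61 to 1.97) and 1.36 (1.26 to 1.47), against 1.87 for all of these cells outside hormone and mitochondrial genes.

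**Figure D5:**
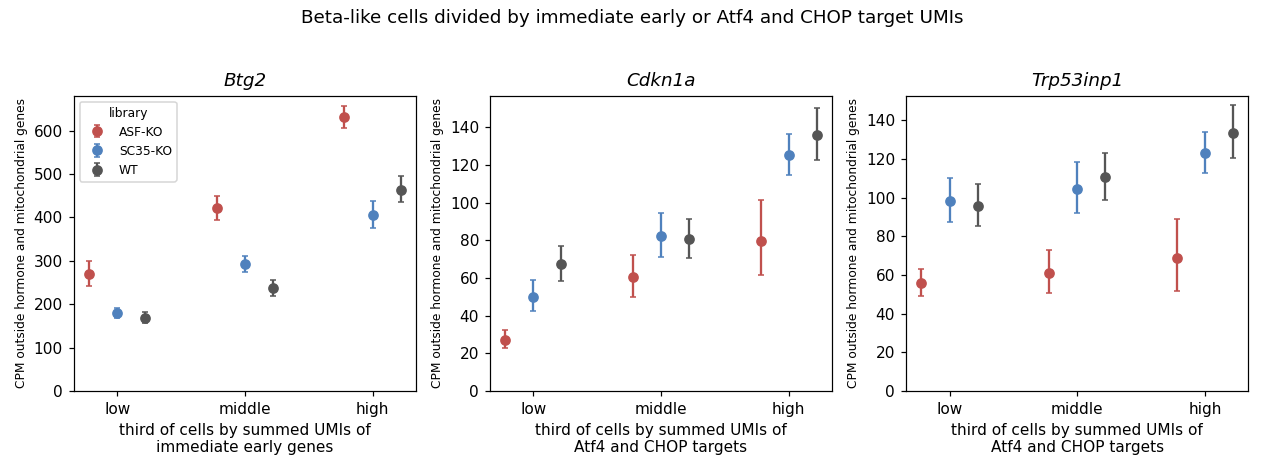
Level (CPM outside hormone and mitochondrial genes, axis from 0) of Btg2 in beta-like cells divided by immediate early UMIs, and of Cdkn1a and Trp53inp1 in beta-like cells divided by Atf4 and CHOP target UMIs, in ASF-KO (red), SC35-KO (blue) and WT (grey), with exact 95% counting intervals. The groups are tertiles of the 3 libraries pooled; Btg2 is highest in the high cells of each library, at 631, 406 and 464 CPM in ASF-KO, SC35-KO and WT.

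Other genes of the pathway were counted by the same rule, and the shares of all genes given above for each comparison apply to these counts too. Of 30 other reported p53 target genes, 7 were measured in beta-like cells, with 0 higher and 2 lower in ASF-KO: Sesn2, a stress-inducible regulator of mTORC1 that also belongs to the Atf4 list, at 12.5 CPM in ASF-KO against 27.7 CPM in WT, and Ak1, an adenylate kinase, at 6.76 CPM against 14.3 CPM. In SC35-KO beta-like cells 1 of 7 was higher, the ubiquitin ligase gene Rchy1, at 31.7 CPM against 26.4 CPM in WT. In alpha-like cells 2 of 13 were higher in ASF-KO, Aen at 17.4 CPM against 10.6 CPM in WT and the apoptosome gene Apaf1 at 11.4 CPM against 6.86 CPM. Rchy1 was the 1 gene of 13 that was higher in SC35-KO alpha-like cells. In delta-like cells 0 of 13 were higher and 2 lower in ASF-KO, and 1 higher and 0 lower in SC35-KO. In endothelial-like cells 2 of 17 were higher and 2 lower in ASF-KO, and 4 of 17 higher and 3 lower in SC35-KO. Of all genes, 9.62% were higher and 12.9% lower in ASF-KO and 9.05% higher and 11.4% lower in SC35-KO endothelial-like cells, so the ASF-KO counts are near the share of all genes. Among them Plk2, a stress-inducible kinase, stood at 642.5 CPM in ASF-KO against 296 CPM in WT. Sesn1, a sestrin, and Pmaip1, the BH3-only protein Noxa, were lower in both knockout libraries, and Dram1 was higher in both. In SC35-KO alone Tnfrsf10b, Rchy1 and Epha2 were higher and Fas was lower. Of 15 genes of p53 and its regulators, 7 were measured in beta-like and 10 in alpha-like cells, and none reached the fold there in ASF-KO. In SC35-KO, Atm was the 1 of 7 that was lower in beta-like cells, where 2.55% of all genes were. Rpl5 was the 1 of 10 that was higher in SC35-KO alpha-like cells, where 2.61% of all genes were. Among relatives and partners in ASF-KO beta-like cells, 1 of 7 measured paralogs was lower, Gadd45b, at 13.3 CPM in ASF-KO against 30.4 CPM in WT. The survival gene Bcl2l1, at 7.59 CPM in ASF-KO against 19.2 CPM in WT, and the BH3-only gene Bcl2l11, at 6.04 CPM against 13.8 CPM, were the 2 of 5 BCL2 family genes that were lower. Ccnd1, cyclin D1, was the 1 of 5 cyclins and partners that was higher, at 106.6 CPM in ASF-KO against 61.8 CPM in WT. In SC35-KO beta-like cells 0 genes of the paralogs, the BCL2 family or the cyclins and partners reached the fold.

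Likeness was measured over the 12 sums of 4 classes in 3 libraries, as Pearson's r of log2(CPM + 1) among genes that reached 50 CPM in at least 1 sum. The sums share libraries and class, so r is a description. CPM here was over all UMIs, of which insulin took a large share in beta-like cells. The part of that share in r was not tested, and r was not computed outside hormone and mitochondrial genes. Btg2 was most like Jun (r = 0.98), Ppp1r15a (0.98) and Junb (0.97), immediate early or stress genes. Cdkn1a was most like Lrg1, Vwf and Fbln5 (0.96 each), of which Vwf encodes the endothelial von Willebrand factor. Phlda3 was most like Cmtm8, Ntn4 and Akap12 (0.99 each). Between members, the highest values were 0.92 for Trp53inp1 with Zmat3, 0.91 for Bax with Btg2 and 0.89 for Cdkn1a with Phlda3.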

How the data were processed

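Per the labels, cells were captured with the Chromium 3' v3 kit. The deposited matrices hold UMI counts per gene and barcode, and mm10, STAR, Seurat and Cell Ranger 5.0.0 are named in the submitters' processing notes. The members and gene lists were chosen with earlier results of these data known. Barcodes needed 500 genes, 1000 UMIs and a mitochondrial share no higher than 20% (7401 in ASF-KO, 11685 in SC35-KO and 9288 in WT). The Scrublet caller of scanpy 1.11.5 then marked 278 (3.76%), 902 (7.72%) and 329 (3.54%) doublets in the same order. Classes came from gates on hormone share and fixed markers, and Leiden clusters named by the same markers served as an alternative. Gates left 568 ASF-KO, 917 SC35-KO and 851 WT cells without a class. Intervals are exact (Poisson, conditional binomial or Clopper-Pearson), and the scripts were tested on simulated data. UMIs are distinct molecules only as far as the authors' counting separates them. Genes outside the set are named by rule: the most extreme measured genes of each list, the 10 genes ranked highest in cells with Cdkn1a, and the 3 genes most like each member. Only the leading ones are printed here. Alternatives covered scaling, the minimum CPM, cell filters, doublets, class definition and thinning; those for endothelial-like cells and for cells with Cdkn1a were chosen after seeing the data.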

Additional observations from a re-analysis of the deposited data

Results flagged for a closer look

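Gamma-like cells were outside the comparisons because the ASF-KO library held only 95 of them, with 265 in SC35-KO and 233 in WT. In these cells Btg2 stood above WT in ASF-KO but not in SC35-KO, at 480 CPM in ASF-KO and 164 CPM in SC35-KO against 242 CPM in WT. The ratio of ASF-KO to WT relative to the median gene was 1.45, short of 1.5-fold, from 653 UMIs in ASF-KO and 875 in WT. Cdkn1a in the same cells had 27 UMIs in ASF-KO and 20 in SC35-KO against 88 in WT, relative ratios of 0.597 and 0.268.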

How the results depend on the processing

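No paired analysis was possible because each genotype has 1 library and the labels give no replicate numbers. Of 551 recomputed ratios of single members, 523 stayed within their counting interval, 28 moved and 0 called ratios changed direction. Of 160 recomputed counts of called members, 143 kept their size. In beta-like cells the count higher in ASF-KO was 2 with hormone and mitochondrial genes left out of the total (Gadd45a and Btg2), 2 under median-of-ratios scaling (Bax and Btg2) and 3 with no minimum CPM, in place of 1. The count lower was 0 instead of 2 at a minimum of 50 CPM, which Cdkn1a and Trp53inp1 do not reach. In alpha-like cells the count higher in ASF-KO was 0 at 50 CPM and 1 under the stricter cell filter and with Leiden clusters, in place of 2, and in SC35-KO it was 1 with no minimum, in place of 0. In delta-like cells the count higher in ASF-KO was 1 without hormone genes, in place of 0. The count lower was 0 at 50 CPM and 2 with no minimum in ASF-KO, in place of 1, and 1 at 50 CPM in SC35-KO, in place of 2. In endothelial-like cells thinned to 2000 UMIs, 0 were higher and 3 lower in ASF-KO and 2 lower in SC35-KO, in place of 1, 1 and 1. With no minimum 2 were lower in ASF-KO, and with Leiden clusters 3 were higher in SC35-KO (Ccng1, Trp53inp1 and Zmat3), all from few UMIs. The cause of these moves was not tested beyond the minimum CPM. In alpha-like cells with against without Cdkn1a, thinning to 1000 UMIs gave Ccng1 2.11 in ASF-KO and 1.30 in WT, Bax 1.42 in WT and Phlda3 2.53 in WT, and the stricter cell filter gave Ccng1 2.16 in SC35-KO. Depth limits Phlda3 and Gadd45a most, both under 10 CPM in beta-like cells of every library.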
